A study of Mus musculus with 8 samples.

Results

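The genes described here were 10 NOD-like receptor and inflammasome genes, Nod1, Nod2, Ripk2, Nlrp3, Nlrc4, Pycard, Casp1, Casp4, Aim2 and Mefv, taken as a list by gene symbol and with every probe of each symbol kept. The array table held 25697 probes of 18138 gene symbols. Of the 10 genes, 9 had a probe, and Nlrc4, which acts with the NAIP sensors of bacterial flagellin, had none under that symbol. These 9 genes had 12 probes, of which 11 passed the detection filter (detection p under 0.05 on at least 2 of the 8 arrays), as did 13868 probes of 10163 genes in the whole table.

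The 8 Illumina bead arrays, 2 for each of 4 groups, carried RNA of macrophages grown from bone marrow of female mice aged 8 weeks. All cultures received GM-CSF at 10 ng per ml for 7 days. WT cells came from C57bl/6J mice, and the cells labelled iNOSKO came from iNOS-deficient animals, which carry the germline allele Nos2 tm1Lau on a B6 background (B6.129P2) and so lack the inducible nitric oxide synthase in every cell type. CON cultures were left unstimulated, and M1 cultures received LPS at 200 ng per ml and IFN-γ at 10 ng per ml for 6 h, a standard way to drive classical (M1) activation. The study used this design to ask how iNOS shapes M1 differentiation. Whether the 2 arrays of a group came from separate animals was not stated, so the p-values measure the spread between arrays only.

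NOD1 and NOD2 sense fragments of bacterial cell wall in the cytosol and recruit the kinase RIPK2, which leads to activation of NF-kB. Inflammasome sensors (NLRP3, NLRC4, AIM2 and pyrin, the product of Mefv) instead assemble with the adaptor ASC, encoded by Pycard, and activate caspase-1, which cleaves the precursors of IL-1β and IL-18. Murine caspase-4, usually called caspase-11, binds LPS in the cytosol directly and cleaves gasdermin D, and in macrophages several of these genes are known to need a priming signal before the complexes can work.

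Between 11833 and 12673 probes (46 to 49.3%) were detected per array, scale factors ran from 0.813 to 1.3, and the median difference between the 2 arrays of a group was 0.161 to 0.187 on the log2 scale. Nos2 did not check the genotype labels. Its probe was not detected on the 4 CON arrays and gave log2 intensities of 7.47 and 7.05 in WT M1 and 7.49 and 7.67 in iNOSKO M1. That probe starts at base 3546 of its transcript, and whether it lies in the part the allele removes was not given in the sources used here, so every direction between genotypes below rests on the labels alone. All 8 macrophage markers measured were detected in every group (summed intensity 29700 to 29900 in WT CON, 31500 to 33900 in WT M1, 23400 to 24300 in iNOSKO CON and 35300 to 36100 in iNOSKO M1), and none of 6 T, B and NK cell markers was detected on any array. Among dendritic cell markers, 5, 7, 7 and 6 of 9 were detected on both arrays of WT CON, WT M1, iNOSKO CON and iNOSKO M1, with summed intensities of 833 to 839, 16200 to 16700, 13700 to 14500 and 34800 to 36600. Granulocyte markers (7 on the array) summed to 1120 to 1140, 1390 to 1500, 1680 to 1740 and 3860 to 3980 in the same order, and markers of dividing cells (8 on the array) to 508 to 557, 1730 to 1840, 2040 and 606 to 612. These sums moved with both stimulation and genotype, and their part in the results below was not tested. A sum follows its brightest members, for dendritic cells Ccl17 and Il4i1 (mean log2 14.24 and 13.75 in iNOSKO M1). In iNOSKO M1 against WT M1, 3 of 6 granulocyte markers tested were higher and none lower. Of 6 dividing cell markers tested, 5 were lower and none higher. Single macrophage and dendritic cell markers went both ways. Of 8 macrophage markers 3 were higher and 4 lower, and of 7 dendritic cell markers tested 3 were higher and 1, Cd209a, lower (all genes, 23.7% and 26%). In bulk RNA, fewer cells of a type and less RNA per cell cannot be told apart.

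Since a bead array reads a gene through one stretch of its transcript, the start of each probe is printed for the 3 genes where the probe bears on the result, Casp4 with 3 probes, Ripk2 with 2 probes and Casp1 with 1 probe. Each line gives the first 30 of the 50 probe bases, 5′ to 3′, with no part marked in capitals, and the name states the transcript base at which the probe starts.

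Casp4, from base 942: ccccacatcacttgtcctaccgagacaaaa
Casp4, from base 1145: cctggcaactgagaacaaagcaacaagcaa
Casp4, from base 1203: gtgatcttggccaaggatcacattctattc
Ripk2, from base 348: gggaatttgcaatgagcctgaatttttggg
Ripk2, from base 1615: gtgcagaagttgaaagataacaagcagctg
Casp1, from base 1355: cactgctgatagggtgaccctgacaaaacg

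No probe of the 9 genes shared its sequence with another row of the table. Levels are log2 intensities after scaling of the arrays, and because probes differ in brightness, levels were compared only within a probe. A gene was called changed when its limma p-value, adjusted by Benjamini-Hochberg over the 13868 probes tested, was under 0.05. A gene with several probes is represented by the brightest.

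**Figure D1:**
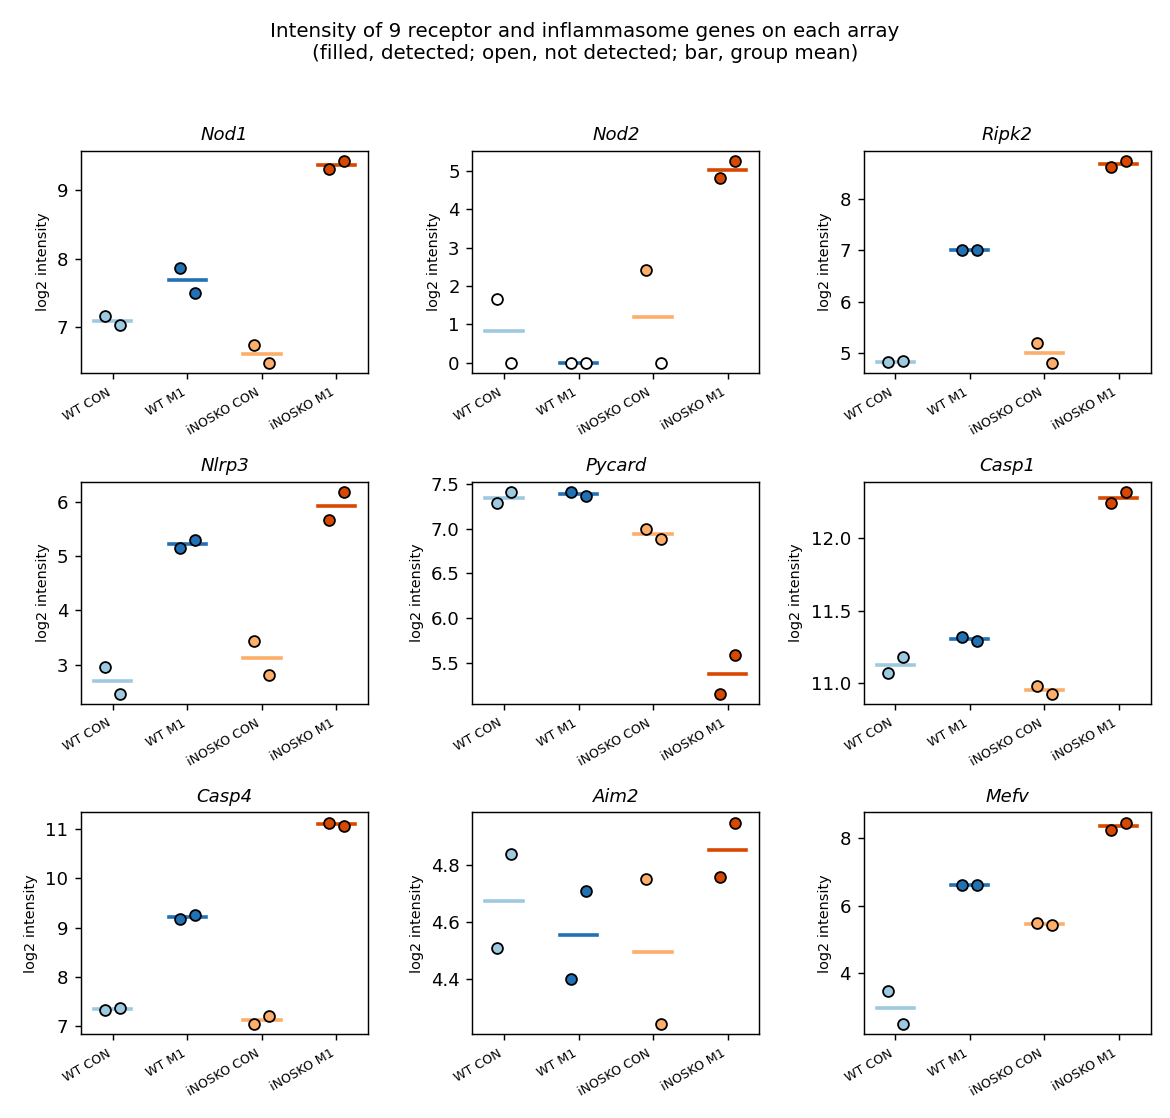
Log2 intensity of each of the 9 measured genes (1 panel each, vertical axes scaled to the gene) on the 8 arrays, by group; points are arrays, filled where the probe was detected and open where it was not, and bars are group means. For 7 of the 9 genes both iNOSKO M1 arrays stood above all other arrays, Pycard had its 2 lowest values there, and the Aim2 values of the groups lay close together, between 4.24 and 4.95.

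Nod1, the receptor for meso-diaminopimelic acid peptides, rose under stimulation in both genotypes, but far more in the cells labelled iNOSKO. Its log2 intensities were 7.15 and 7.02 in WT CON, 7.86 and 7.5 in WT M1, 6.73 and 6.47 in iNOSKO CON, and 9.31 and 9.43 in iNOSKO M1. No pair of groups overlapped, and the iNOSKO M1 arrays stood well above the rest. Stimulation raised Nod1 by 0.59 (log2, SE 0.16, 1.51-fold, adjusted p = 0.042) in WT and by 2.77 (SE 0.16, 6.81-fold, adjusted p = 0.000161) in iNOSKO cells. The difference between these responses was 2.18 (SE 0.23, adjusted p = 0.00187). Within M1 the level was 3.23-fold higher in iNOSKO than in WT cells (log2 1.69, adjusted p = 0.000955), and before stimulation the difference of -0.48 did not pass the test (adjusted p = 0.079). The small WT response was called in 7 of 17 alternative analyses. It was lost with quantile normalization (0.49, adjusted p = 0.0805), without the detection filter (adjusted p = 0.0794), with only the WT arrays fitted (adjusted p = 0.0914) and on leaving out any array except replicate 2 of WT M1, with estimates of 0.53 and 0.66 without a WT CON array, 0.41 (adjusted p = 0.146) without replicate 1 of WT M1, and 0.59 without any iNOSKO array.

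Nod2, the receptor for muramyl dipeptide, was detected on both iNOSKO M1 arrays and on 1 iNOSKO CON array only. Its log2 intensities were 1.66 and 0 in WT CON, 0 and 0 in WT M1, 2.41 and 0 in iNOSKO CON, and 4.82 and 5.26 in iNOSKO M1, where 0 is the floor. It passed the detection filter through the iNOSKO arrays alone, so it had to differ there. Nod2 was at least 4.8-fold higher in iNOSKO M1 than in WT M1 (adjusted p = 0.00774) and at least 5.85-fold higher than in WT CON (adjusted p = 0.0118), each bound set against the dimmest signal detected on the arrays of the lower group. Within iNOSKO cells the fitted rise under stimulation was 3.84 on the log2 scale (SE 0.91, adjusted p = 0.0182), and the interaction was 4.67 (SE 1.29, adjusted p = 0.0361). The size of these fitted values is set by the floor, since the probe was not detected on the other 5 arrays. With a floor of 16 each was 1.04, and with neqc they were 1.3 and 1.38, all called. The calls rested on few arrays. The rise within iNOSKO cells was not called without the detection filter (adjusted p = 0.052), with only the arrays compared (adjusted p = 0.0539), or without replicate 2 of iNOSKO CON (2.64), replicate 1 of iNOSKO M1 (4.06) or replicate 2 of iNOSKO M1 (3.62, adjusted p = 0.0777), and the interaction was not called without the detection filter (adjusted p = 0.0899) or on leaving out any array except replicate 2 of WT CON and replicate 1 of iNOSKO CON, with estimates from 3.47 to 5.87 and adjusted p from 0.0165 to 0.0943 over the 8. The difference from WT CON was lost without replicate 2 of WT CON or replicate 2 of iNOSKO M1 (adjusted p up to 0.0568). The test of iNOSKO M1 against WT M1 kept its call whichever array was left out. Because Nod2 passed the filter through the iNOSKO arrays, this is a description and not support for the difference.

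Nlrp3, the sensor that responds to potassium efflux and many other danger signals, rose in both genotypes. Log2 intensities were 2.95 and 2.47 in WT CON, 5.15 and 5.3 in WT M1, 3.44 and 2.82 in iNOSKO CON, and 5.67 and 6.18 in iNOSKO M1. The M1 arrays stood above the CON arrays in both genotypes, and the 2 CON groups overlapped. The WT CON values lay near the lowest detected signals of those arrays (2.52 and 2.47), so the WT fold rise starts from dim values. Stimulation raised Nlrp3 by 2.52 (SE 0.3, 5.72-fold, adjusted p = 0.00308) in WT and by 2.79 (SE 0.3, 6.93-fold, adjusted p = 0.00108) in iNOSKO cells, and the difference of 0.28 between the responses had a 95% interval of -0.8 to 1.35 (adjusted p = 0.641), though it was 0.56 and called with the neqc normalization (adjusted p = 0.0372). The rises were 1.08 in WT and 1.64 in iNOSKO cells with neqc, and that in WT was 1.23 with a floor of 16, all called. Both iNOSKO M1 arrays exceeded both WT M1 arrays, by 0.7 on average (adjusted p = 0.113), a difference that passed the test with the neqc normalization (0.65, adjusted p = 0.00264) and with a floor of 16 (0.7, adjusted p = 0.0334).

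Mefv, which encodes the sensor pyrin, was the only gene of the list called between the unstimulated genotypes. Its log2 intensities were 3.47 and 2.49 in WT CON, 6.62 and 6.63 in WT M1, 5.5 and 5.43 in iNOSKO CON, and 8.26 and 8.47 in iNOSKO M1. No pair of groups overlapped, and both iNOSKO groups lay above their WT counterparts. Before stimulation the iNOSKO level was 5.6-fold higher (log2 2.49, SE 0.32, adjusted p = 0.00395), and after it 3.33-fold higher (1.74, SE 0.32, adjusted p = 0.00801). Stimulation raised Mefv by 3.64 (SE 0.32, 12.5-fold, adjusted p = 0.00112) in WT and by 2.89 (SE 0.32, 7.44-fold, adjusted p = 0.00115) in iNOSKO cells. With neqc the difference before stimulation was 1.23 and the WT rise 2.1, and with a floor of 16 the former was 1.47, all called. The interaction of -0.75 did not pass the test (adjusted p = 0.237), turned to 0.36 with neqc and to 0.27 with a floor of 16, and was -1.24 (adjusted p = 0.0118) without replicate 1 of WT CON, the brighter of the 2 dim WT CON arrays.

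Aim2, the sensor of double-stranded DNA in the cytosol, passed none of the tests. Its log2 intensities were 4.51 and 4.84 in WT CON, 4.4 and 4.71 in WT M1, 4.75 and 4.24 in iNOSKO CON, and 4.76 and 4.95 in iNOSKO M1. WT CON, WT M1 and iNOSKO CON overlapped each other, and the iNOSKO M1 arrays also overlapped with WT CON. The change on stimulation was -0.12 (95% interval -0.69 to 0.46, adjusted p = 0.732) in WT and 0.36 (-0.22 to 0.94, adjusted p = 0.246) in iNOSKO cells, and the interaction was 0.48 (-0.34 to 1.29, adjusted p = 0.293). With neqc that interaction was 0.53 and passed the test (adjusted p = 0.0364). Aim2 was detected on all 8 arrays.

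Ripk2, the kinase that binds both NOD1 and NOD2 through its CARD, rose with stimulation in both genotypes. The probe from base 1615 gave 4.82 and 4.85 in WT CON, 7 and 7.01 in WT M1, 5.19 and 4.81 in iNOSKO CON, and 8.61 and 8.73 in iNOSKO M1. The CON groups overlapped, WT M1 stood above them and iNOSKO M1 stood highest. Ripk2 rose by 2.17 (SE 0.14, 4.49-fold, adjusted p = 0.000423) in WT and by 3.67 (SE 0.14, 12.7-fold, adjusted p = 4.8e-05) in iNOSKO cells, a difference in response of 1.5 (SE 0.2, adjusted p = 0.00354). Within M1 it was 3.18-fold higher in iNOSKO cells (log2 1.67, adjusted p = 0.000655). The other Ripk2 probe, from base 348, was not detected on any array and was not tested.

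Pycard, the adaptor that links sensors to caspase-1, fell on stimulation in the cells labelled iNOSKO and did not pass the test in WT. Log2 intensities were 7.28 and 7.41 in WT CON, 7.41 and 7.36 in WT M1, 6.99 and 6.88 in iNOSKO CON, and 5.16 and 5.59 in iNOSKO M1. The WT groups overlapped, the iNOSKO CON arrays lay slightly below them and the iNOSKO M1 arrays lowest. Pycard fell by 1.56 on the log2 scale in iNOSKO cells (SE 0.16, 2.95-fold lower, adjusted p = 0.000942), while the WT change was 0.03 (95% interval -0.37 to 0.44, adjusted p = 0.89). The interaction was -1.6 (SE 0.23, adjusted p = 0.00449), and within M1 the iNOSKO level was 4.03-fold lower (log2 -2.01, adjusted p = 0.00057). The difference of -0.41 between the CON groups (adjusted p = 0.113) was called with neqc, with an intensity trend in the variance model, and without either iNOSKO M1 array (adjusted p = 0.0395).

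Casp1, the protease that matures IL-1β and IL-18, was already bright before stimulation. Log2 intensities were 11.07 and 11.18 in WT CON, 11.32 and 11.29 in WT M1, 10.98 and 10.93 in iNOSKO CON, and 12.24 and 12.32 in iNOSKO M1. No pair of groups overlapped, and the iNOSKO M1 arrays stood apart above the other 3 groups, which lay close together. The WT response of 0.18 did not pass the test (95% interval -0.03 to 0.4, adjusted p = 0.161) except with an intensity trend in the variance model (adjusted p = 0.0456). In iNOSKO cells Casp1 rose by 1.33 (SE 0.09, 2.51-fold, adjusted p = 0.000208), the interaction was 1.14 (SE 0.12, adjusted p = 0.00185), and within M1 the iNOSKO level was 1.96-fold higher (log2 0.97, adjusted p = 0.000732). With neqc or quantile normalization these 3 values were smaller, 0.67, 0.43 and 0.46, and still called.

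Casp4, the caspase that recognises cytosolic LPS, gave the largest fold rise in stimulated iNOSKO cells among the genes of the list detected on all 8 arrays. Its brightest probe, from base 942, gave 7.33 and 7.37 in WT CON, 9.18 and 9.25 in WT M1, 7.03 and 7.19 in iNOSKO CON, and 11.14 and 11.06 in iNOSKO M1. The probe from base 1203 gave 6.43 and 6.55, 7.79 and 8.07, 6.25 and 6.35, and 10.21 and 10.22 in the same order of groups. The probe from base 1145 was dimmer, with 3.31 and 3.73, 4.83 and 4.64, 3.84 and 2.87, and 6.99 and 6.9. On all 3 probes printed above the CON arrays were lowest, WT M1 intermediate and iNOSKO M1 highest, and the CON groups overlapped on the dimmest probe only. Stimulation raised the brightest probe by 1.86 (SE 0.09, 3.64-fold, adjusted p = 0.000187) in WT and by 3.99 (SE 0.09, 15.9-fold, adjusted p = 1.72e-05) in iNOSKO cells. The 3 probes gave WT responses of 1.86, 1.44 and 1.21, iNOSKO responses of 3.99, 3.92 and 3.59, and interactions of 2.13 (adjusted p = 0.00047), 2.47 (adjusted p = 0.000601) and 2.38 (adjusted p = 0.0131), in order of brightness. Within M1 the iNOSKO level was 3.69-fold, 4.86-fold and 4.63-fold higher on these probes.

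**Figure D2:**
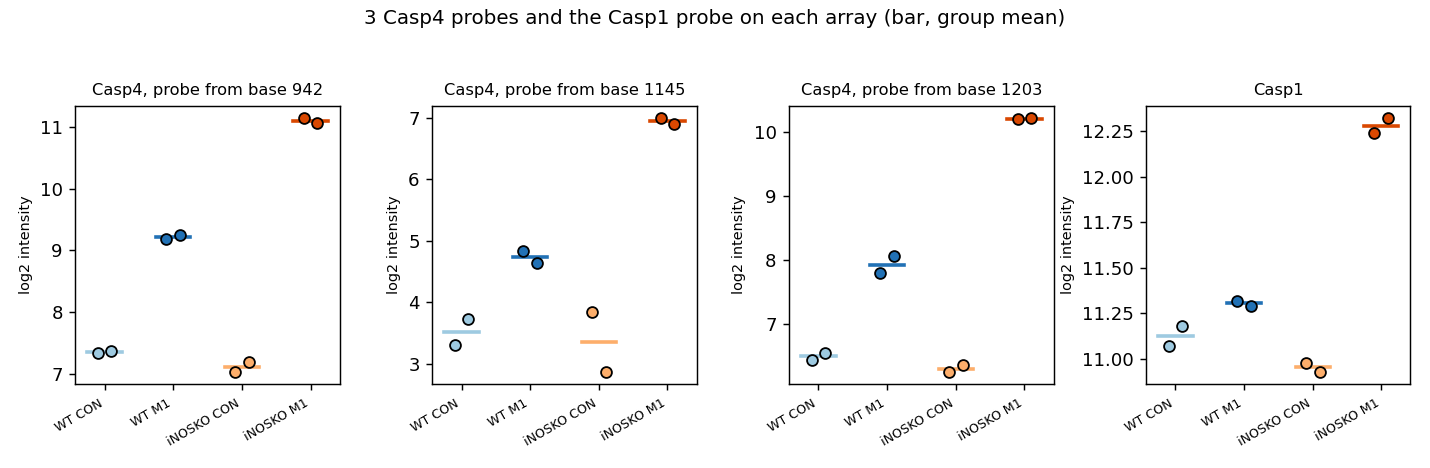
Log2 intensity on each array for the 3 Casp4 probes and the Casp1 probe, by group (vertical axes scaled to the probe); points are arrays and bars are group means. The 3 Casp4 probes show the same order of the stimulated groups, with iNOSKO M1 above WT M1 by 1.89, 2.21 and 2.28 for the probes from base 942, 1145 and 1203, whereas the Casp1 means are 11.12 (CON) and 11.31 (M1) for WT, 10.95 (CON) and 12.28 (M1) for iNOSKO cells.

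Counted over the list, stimulation raised 5 of 9 genes in WT (Nod1, Ripk2, Nlrp3, Casp4 and Mefv) and lowered none, with 36.4% of the 10163 genes tested called in either direction, 20.9% higher. The count was 4 with quantile normalization, without the detection filter and with only the WT arrays fitted, where the Nod1 call was lost. It was 6 with an intensity trend in the variance model. The median response was 0.59 over the 9 genes and 0.06 over all genes tested, and the 2 WT groups did not overlap for 6 of the 9 genes, as for 72.4% of all genes. In iNOSKO cells 7 rose and 1, Pycard, fell, with 51.9% of all genes called, 25.2% higher and 26.8% lower, and the medians were 2.79 and -0.01. The iNOSKO groups did not overlap for any of the 9, as for 78.4% of all genes. The count of 7 and the median of 2.79 are descriptions, as Nod2 passed the filter only through the iNOSKO arrays. Aim2 was the gene not called there. The responses differed between genotypes for 6 genes, larger in iNOSKO cells for Nod1, Nod2, Ripk2, Casp1 and Casp4 and lower for Pycard, with 43.7% of all genes called, 20.1% higher and 23.6% lower. The count of 6 includes Nod2 and is likewise a description.

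**Figure D3:**
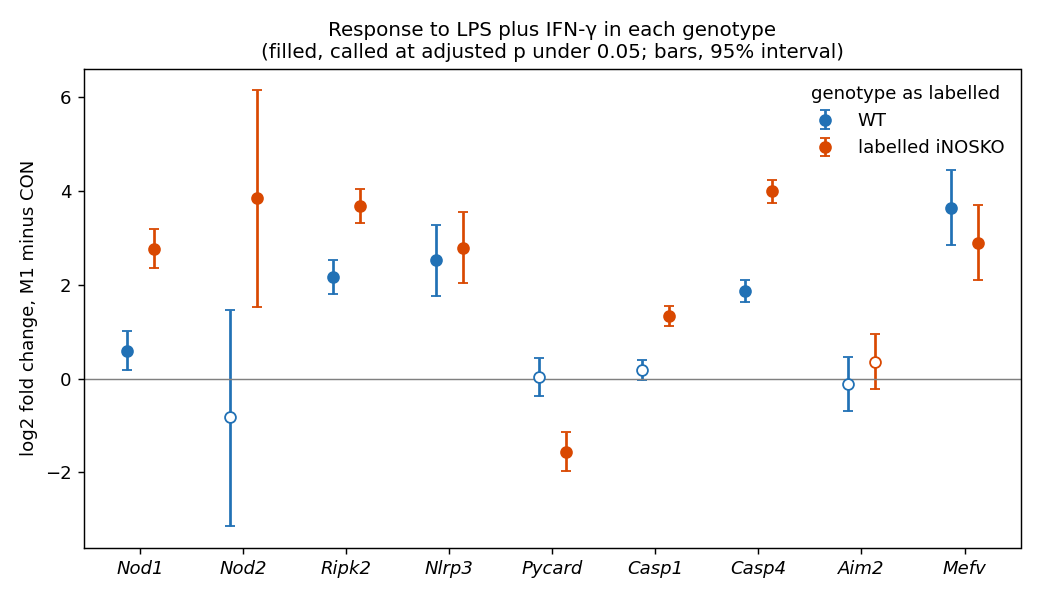
Log2 fold change of M1 over CON for each of the 9 genes in WT cells and in cells labelled iNOSKO; points are limma estimates over 2 arrays a group, filled where called at an adjusted p under 0.05, and bars are 95% intervals. The intervals of the 2 genotypes are separate for Nod1, Nod2, Ripk2, Pycard, Casp1 and Casp4 and overlap for Nlrp3, Aim2 and Mefv, and the WT value of Nod2 compares groups in which the probe was not detected.

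Between the genotypes within M1, 6 genes were higher and Pycard lower in iNOSKO cells, with 49.7% of all genes called, 23.7% higher and 26% lower, and medians of 1.67 over the 9 genes and -0.03 over all genes. The 6 include Nod2, which passed the filter only through the iNOSKO arrays, so the count and the median are descriptions. The arrays of the 2 M1 groups did not overlap for any of the 9 genes, as for 75.8% of all genes. Within CON only Mefv was called (higher), with 34.1% of all genes called, 17.9% higher and 16.2% lower, and the CON groups did not overlap for 5 of the 9, against 71.5% of all genes. That CON count was 3 with neqc, 2 among probes detected on all 8 arrays and 4 with an intensity trend, and it was 2 without either iNOSKO M1 array. These comparisons share arrays with the stimulation comparisons, so they are not separate evidence.

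The 4 groups were also set in order of level. For Ripk2 and Nlrp3 the CON groups came first and did not pass the test against each other (differences of 0.16 and 0.42), and WT M1 lay above iNOSKO CON by 2 (adjusted p = 0.00178) and 2.1 (adjusted p = 0.0149). For Nod1, Casp1 and Casp4 the order was iNOSKO CON, WT CON, WT M1, iNOSKO M1, in which the first pair did not pass the test for any of the 3 genes and the WT pair did not for Casp1. Mefv ran from WT CON through iNOSKO CON and WT M1 to iNOSKO M1, and its middle pair did not pass the test (1.16, adjusted p = 0.0733), although it did in 7 of 17 alternative analyses (neqc, a floor of 16, probes detected on all 8 arrays, the variance trend, only the arrays compared, and without either WT CON array). For Pycard iNOSKO M1 stood lowest, and the next groups, iNOSKO CON, WT CON and WT M1, did not pass the test between neighbours. No neighbours passed it for Aim2, and for Nod2 the first step that did was from iNOSKO CON to iNOSKO M1. Unstimulated iNOSKO cells were below WT M1 for 4 genes, Nod1, Ripk2, Nlrp3 and Casp4, with 13.5% of all genes called in that comparison, 4.18% higher and 9.28% lower, and no overlap for 7 of the 9 genes and 63% of all. In this comparison of iNOSKO CON with WT M1, Ripk2 and Casp4 kept the call whichever array was left out. Nod1 lost it without replicate 1 of WT M1 or either iNOSKO CON array (-0.9 to -1.21, adjusted p up to 0.0864), and Nlrp3 without either WT M1 array or replicate 2 of iNOSKO CON (-1.79 to -2.17, adjusted p up to 0.0782). The Nlrp3 difference was -0.99 with neqc and -1.23 with a floor of 16. Between the extremes of the design, iNOSKO M1 against WT CON, 7 genes were higher and Pycard lower, and Aim2 did not pass the test, with 57.2% of all genes called, 28.9% higher and 28.2% lower, and no overlap for 8 of the 9 genes and 79% of all. The 7 include Nod2, which passed the filter only through the iNOSKO arrays, so this count is a description.

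As several members moved together on stimulation with LPS and IFN-γ, the sequence before their start sites was searched for 4 motifs known from these pathways. RefSeq promoter windows (build GRCm38.p6, 250 bases before to 50 after the start) existed for 9 listed genes, with 12 windows. Motifs were read on both strands: the NF-kB consensus by its name, the interferon-γ site GAS as TTCNNNGAA, the interferon site ISRE as GAAANNGAA, and AP-1 as TGANTCA. The 250 bases before the start are printed for the windows with a match and, for contrast, for the neighbouring Casp1, with matches in capitals and the strand of the gene.

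Casp4, NF-kB matches, plus strand, chr9:5308599-5308848: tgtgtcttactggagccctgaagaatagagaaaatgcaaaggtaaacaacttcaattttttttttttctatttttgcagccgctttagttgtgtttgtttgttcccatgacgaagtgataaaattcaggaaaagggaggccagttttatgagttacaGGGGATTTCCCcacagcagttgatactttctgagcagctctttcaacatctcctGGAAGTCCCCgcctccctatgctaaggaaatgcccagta
Casp1, no match, plus strand, chr9:5298267-5298516: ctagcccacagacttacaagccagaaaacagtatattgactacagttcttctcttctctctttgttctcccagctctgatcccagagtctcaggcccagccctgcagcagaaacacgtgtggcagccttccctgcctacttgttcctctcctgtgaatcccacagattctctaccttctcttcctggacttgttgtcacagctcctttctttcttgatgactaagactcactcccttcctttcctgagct
Nlrp3, NF-kB match, plus strand, chr11:59541319-59541568: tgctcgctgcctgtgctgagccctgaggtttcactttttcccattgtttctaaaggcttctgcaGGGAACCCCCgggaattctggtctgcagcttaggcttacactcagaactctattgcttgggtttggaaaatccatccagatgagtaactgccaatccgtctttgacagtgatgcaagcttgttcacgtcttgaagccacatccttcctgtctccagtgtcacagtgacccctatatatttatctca
Nod1, GAS match, minus strand, chr6:54971662-54971911: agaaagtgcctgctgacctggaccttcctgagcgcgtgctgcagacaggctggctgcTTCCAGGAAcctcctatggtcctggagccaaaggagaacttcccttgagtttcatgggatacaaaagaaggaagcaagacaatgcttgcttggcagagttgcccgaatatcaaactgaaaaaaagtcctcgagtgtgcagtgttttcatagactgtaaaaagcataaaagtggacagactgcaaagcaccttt

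Casp4 held 3 NF-kB matches, a pair that overlaps by all but 1 base from -93 to -83 and another from -39 to -30, and the same bases lay in its second window, 11 bases away. Nlrp3 held 1 from -186 to -177 in 1 of its 2 windows, and Nod1 held a GAS match from -193 to -185 in 1 of its 2 windows. The ISRE and AP-1 letters were found in none of the 12 windows. Over 32851 promoters of the table, 8.46% held an NF-kB match, 8.3% a GAS match, 8.56% an ISRE match and 7.81% an AP-1 match. A match describes the letters in these windows only. Casp1 and Casp4 are neighbours on chromosome 9, with 0 RefSeq entries between them, and of these neighbours Casp4 rose in WT cells (1.86) while the Casp1 change of 0.18 did not pass the test.

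Among 8914 probes of other genes detected on all arrays, the genes closest in pattern were found by the root mean square difference of centred log2 intensities over the 8 arrays. Nod1 was closest to Tank (0.0993) and Slamf8 (0.133), and Ripk2 to Tnfaip3 (0.161) and Oasl2 (0.17). Casp4 was closest to Nt5c3 (0.0976) and Tnfaip3 (0.137). Casp1 lay near Prdx5 (0.067) and Pycard near Abcb8 (0.0973). Nlrp3 and Mefv had looser neighbours, Gpr132 (0.236) and Wars (0.247) for Nlrp3 and Gnb4 (0.278) and Cd80 (0.309) for Mefv. Within the list the closest pair was Casp4 and Ripk2, at 0.215. These values describe likeness over 4 groups that all genes share and carry no test.

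The wider pathway was followed in 98 listed genes, of which 71 were on the array and 58 were tested. In WT cells 27 of them rose and 7 fell on stimulation, where 20.9% of all genes tested rose and 15.5% fell. In iNOSKO cells 36 rose and 11 fell, against 25.2% and 26.8% of all genes. Within M1 34 were higher and 11 lower in iNOSKO cells, against 23.7% and 26% of all genes. In CON 11 were higher and 11 lower, near the shares over all genes of 17.9% and 16.2%. Responses differed between genotypes for 34 pathway genes, with 24 higher and 10 lower in iNOSKO cells, against 20.1% and 23.6% of all genes. The median response over the 58 was 0.54 in WT and 0.92 in iNOSKO cells, and over all genes 0.06 and -0.01. The counts of the sublists below are read against these shares of all genes. None of these pathway genes was run with another floor or normalization, so their single values hold for the main analysis only.

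Among substrates and pore formers, Il1b, the cytokine that caspase-1 cleaves, rose 59.7-fold in WT (mean log2 7.29 to 13.19, adjusted p = 1.62e-05), and Il1a, its relative that needs no such cleavage, rose 32.1-fold (adjusted p = 3.07e-05). Il18 rose 2.09-fold (adjusted p = 0.021). All 3 were higher in iNOSKO M1 than in WT M1, by 2.39-fold for Il1b (adjusted p = 0.000845), 2.57-fold for Il1a and 3.22-fold for Il18. Il1b was already 5.26-fold higher in iNOSKO CON than in WT CON (adjusted p = 0.000204), and its response was smaller in iNOSKO cells (interaction -1.14, adjusted p = 0.00461), whereas that of Il1a was larger (1.17, adjusted p = 0.00563) and that of Il18 did not pass the test (0.87, adjusted p = 0.0891). Of the 6 genes tested in this sublist, 3 rose in WT, 5 in iNOSKO cells, and 4 were higher in iNOSKO M1, with none lower (all genes, 20.9%, 25.2% and 23.7% higher).

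Other NOD-like receptors showed no common direction. Ciita, the class II transactivator, rose 10.8-fold in WT (adjusted p = 5.22e-05), while Naip5 and Naip2, sensors of flagellin and of the secretion rod, fell 1.46-fold (adjusted p = 0.0347) and 1.39-fold (adjusted p = 0.0206). The mean log2 level of Ciita was already 9.54 in iNOSKO CON, against 5.93 in WT CON and 9.37 in WT M1. It reached 10.13 in iNOSKO M1. Within M1, Ciita was 1.7-fold higher in iNOSKO cells, and Naip5 and the mitochondrial Nlrx1 were 1.71-fold and 1.45-fold lower. Of 6 genes tested, 1 rose and 2 fell in each genotype, with 36.4% (WT) and 51.9% (iNOSKO) of all genes called.

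Of the 17 NOD signalling partners tested, 7 rose and 1 fell in WT (all genes, 20.9% and 15.5%), and 11 were higher and 3 lower in iNOSKO M1 than in WT M1 (all genes, 23.7% and 26%). Tnfaip3, which encodes the ubiquitin-editing enzyme A20, rose 4.64-fold in WT (adjusted p = 0.000104) and was 3.48-fold higher in iNOSKO M1 than in WT M1 (adjusted p = 0.000213). Birc3 and Birc2, ubiquitin ligases of the cIAP type, were 3.12-fold and 2.91-fold higher in iNOSKO M1. Slc15a4, a lysosomal transporter, was 2.9-fold lower there (adjusted p = 0.000487), and Map3k7ip1, which encodes TAB1, 1.48-fold lower.

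Triggers and cofactors, 19 tested, rose for 10 and fell for 2 genes in WT (all genes, 20.9% and 15.5%), and 12 were higher and 5 lower in iNOSKO M1 (all genes, 23.7% and 26%, the latter close to the share of the 5). Gbp5, an interferon-induced GTPase that promotes NLRP3 assembly, rose 92.7-fold in WT (mean log2 2.85 to 9.38, adjusted p = 1.21e-05) and was 4.26-fold higher in iNOSKO M1 than in WT M1. It was already 7.71-fold higher in iNOSKO CON (adjusted p = 0.000102), and its response was smaller in iNOSKO cells (interaction -0.85, adjusted p = 0.00997). In WT CON, Gbp5 gave 2.76 and 2.94, near the lowest detected log2 signal on those arrays (2.52 and 2.47). The WT rise, the CON difference and the interaction of Gbp5 therefore depend on dim values. As for the other pathway genes, they were not run with another floor or normalization. Gbp2 rose 10.5-fold in WT, and Ifi205, of the same family as Aim2, rose 10.3-fold, with 1 of 2 WT CON arrays detecting it (mean log2 2.45). The Ifi205 rise likewise depends on dim values. Ifi205 and Ifi204 were 7.14-fold (adjusted p = 0.00179) and 5.96-fold (adjusted p = 0.0143) higher in iNOSKO M1, where the log2 difference of Aim2 was 0.3 (adjusted p = 0.336). Txnip, which binds NLRP3, was 2.56-fold lower in iNOSKO M1, as were Pstpip1, a partner of pyrin (2.24-fold), and P2rx4, an ATP-gated channel (1.55-fold).

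Of 11 genes tested from the list named restraints, Mark4 among them, 7 rose and 2 fell on stimulation in WT (all genes, 20.9% and 15.5%). From the same list, 7 were higher and 1 lower in iNOSKO M1 than in WT M1 (all genes, 23.7% and 26%). Whether each listed gene acts as a restraint was not tested here. Il1rn, the IL-1 receptor antagonist, rose 3.78-fold in WT (adjusted p = 0.000138) and was 4.67-fold higher in iNOSKO M1 than in WT M1 (adjusted p = 0.000131). Serpinb1a, a protease inhibitor that limits inflammatory caspases, was 26.8-fold higher in iNOSKO M1 (mean log2 2.94 in WT M1, where 1 of 2 arrays detected it, and 7.68, adjusted p = 0.000695). Il1r2, the IL-1 decoy receptor, rose 21.9-fold in WT (adjusted p = 0.00082), with 1 of 2 WT CON arrays detecting it, and stood at 8.39 in iNOSKO CON and 7.79 in iNOSKO M1. The WT CON mean of Il1r2 (2.39) lay below the lowest detected signals of those arrays (2.52 and 2.47). The WT M1 mean of Serpinb1a lay near those of the WT M1 arrays (2.72 and 2.84). The 21.9-fold and 26.8-fold values therefore depend on dim values. Trem2, a lipid receptor of macrophages, fell 2.61-fold in WT and was 1.94-fold lower in iNOSKO M1, and Txn1, thioredoxin, fell 2.03-fold in WT. Txn1 rose 2.44-fold in iNOSKO cells (interaction 2.31, adjusted p = 0.00134) and was 3.24-fold higher in iNOSKO M1 than in WT M1 (adjusted p = 0.000803).

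**Figure D4:**
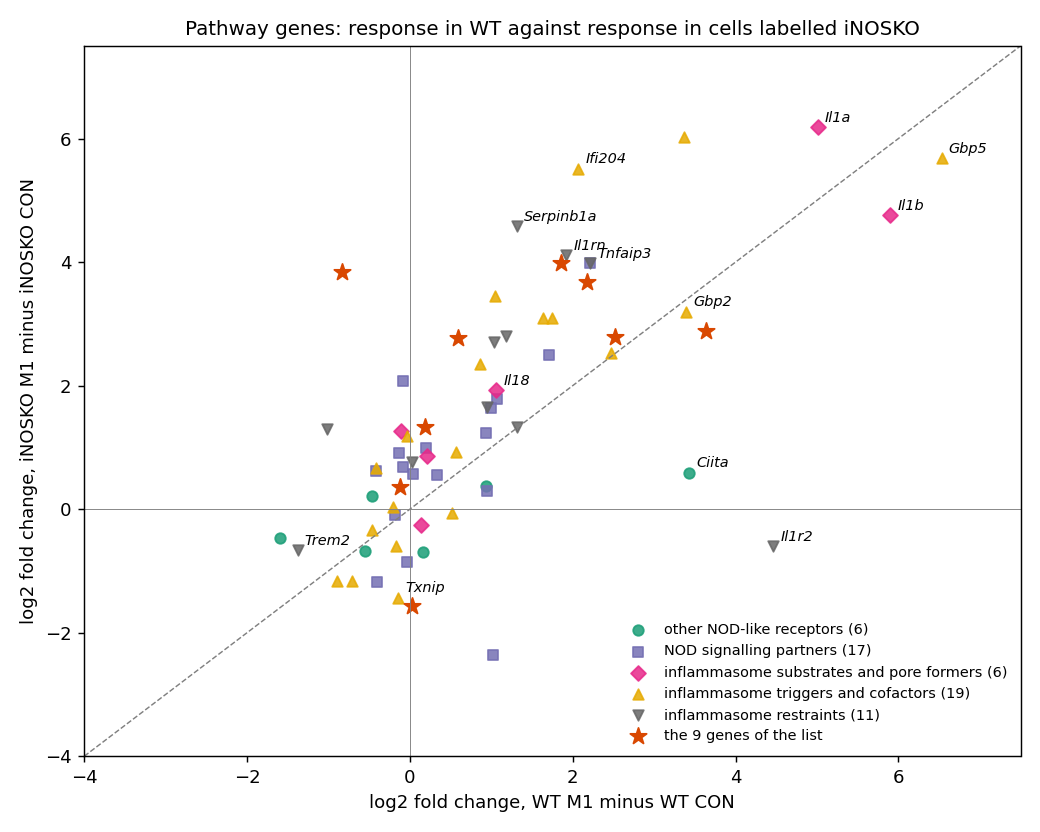
Log2 fold change of M1 over CON in cells labelled iNOSKO (vertical) against WT (horizontal) for the 58 tested pathway genes, marked by sublist (Tnfaip3 stands in 2 sublists), and for the 9 genes of the list (stars); the dashed line marks equal responses. Il1b, Il1a and Gbp5 lie farthest to the right, Ciita and Il1r2 lie well below the line, and Serpinb1a and most stars lie above it.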

How the data were processed

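RNA of 8 samples (4 groups of 2) had been hybridised to Illumina mouse bead arrays, named MouseRef-8 in one label and MouseWG-8 elsewhere. The authors deposited 1 table of average signal intensities and detection p-values per probe. The submitters' processing notes list GenomeStudio and limma 3.14.4. Its header names no normalization and no background subtraction, but values of undetected probes lie around 0 (25.2 to 27.2% below it), so the deposited intensities look background-subtracted. The genome build was not given in the sources used here. 0 value columns lacked a sample.

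From these intensities a scale factor per array was fitted against the mean of all arrays on rank-invariant probes (robust regression, MASS 7.3.60.0.1), values under 1 were set to 1, and log2 was taken. Probes with detection p under 0.05 on at least 2 arrays were fitted with limma 3.58.1 (lmFit, eBayes, R 4.3.3), 1 mean per group over all 8 arrays. P-values were adjusted by Benjamini-Hochberg over all probes tested. The fit was also run on data simulated from the WT M1 arrays, with changes in bright probes only. That run does not cover dim probes or comparisons in which many genes change. A lower bound sets the brighter group's mean against the lowest signal detected on the arrays of the dimmer group, where the probe itself is dimmer. The number of arrays, 2 per group, limits the precision.

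The members, pathway lists and marker lists were chosen with earlier results of these data known. Every member was named, with Nos2 and, per pathway sublist, up to 3 called genes with the largest change each way in the WT response and in the M1 genotype comparison, if detected on both arrays of the higher group. A few genes this rule selects are not reported here. Sequences come from the deposited probe table and from RefSeq promoters, without an entry for Ripk2. Alternatives were a floor of 16, neqc, quantile normalization, detection on all 8 arrays or no detection filter, a variance trend, only the arrays compared, a replicate block, probe means and each array left out.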

Additional observations from a re-analysis of the deposited data

Results flagged for a closer look

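For 6 genes the response to LPS plus IFN-γ differed between the genotypes by the interaction term of the limma fit, given as the iNOSKO response minus the WT response on the log2 scale. The difference was 2.18 for Nod1, 4.67 for Nod2, 1.5 for Ripk2, 1.14 for Casp1 and 2.13 for Casp4, and -1.6 for Pycard. Nod2 was detected on 3 of the 8 arrays only, with neither WT group detected, so the size of its difference is set by the floor (1.04 with a floor of 16), and the difference was not called in 7 of 15 alternative analyses. The other 5 were called in every alternative run. Groups of 2 arrays were too small for a search for single outlying arrays.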

How the results depend on the processing

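Over 63 results for single genes and 1055 alternative analyses, 978 kept direction and call, 32 lost the call, 27 gained it and 18 changed sign, all 18 among differences not called. Those that changed sign on another normalization or floor were Pycard on stimulation in WT (-0.06 with neqc, -0.06 with quantile normalization), Casp1 between the CON groups (0.03 with neqc and with quantile normalization), the Mefv interaction (0.36 with neqc, 0.27 with a floor of 16), and Aim2 in iNOSKO CON against WT M1 (0.04 with neqc, 0.07 with quantile normalization). With single arrays left out, values that crossed 0 ran from -0.28 to 0.05 for Aim2 and from -0.03 to 0.1 for Pycard in WT stimulation, from -0.43 to 0.08 for Aim2, from -0.83 to 1.57 for Nod2 and from -0.02 to 0.35 for Ripk2 between CON groups, from -0.03 to 0.58 for the Nlrp3 interaction, and from -0.32 to 0.19 for Aim2 in iNOSKO CON against WT M1. The cause was not tested.

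The count of the 9 genes called between CON groups was 1, and 3 with neqc, 2 among probes detected on all 8 arrays, 4 with the variance trend and 1 to 2 with single arrays left out. For iNOSKO CON against WT M1 it was 4, and 7 with the trend and 2 to 5 with single arrays left out. Over all probes, 1882 were called there, and 3563 with neqc, 3161 with the trend, 557 with only the arrays compared, 1208 with the replicate block and 574 to 1538 with single arrays left out. Leaving out single arrays gave 3134 to 4881 probes for stimulation in WT (4869 with all arrays) and 2728 to 4448 between CON groups (4459 with all). With quantile normalization the median of all probes in the WT response moved from 0.09 to -0.06.

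Deviations of same-numbered arrays correlated at -0.03 to 0.03 across 9687 probes, and the replicate block changed no call among the 9 genes. No shared shift by replicate number was seen, but this check cannot exclude that same-numbered arrays shared animals or culture days. With 2 arrays per group, leaving one out assumes that the lone array varies like the other groups, and a miss of the threshold does not show that values were equal. Probes near background, such as Nod2, give bounds only.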
